A study of Mus musculus with 6 samples.

Results

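Immediate early response genes are induced within minutes of a stimulus, without new protein synthesis, and many of their products are transcription factors that act on later genes. Fos and Jun family proteins pair through leucine zippers to form AP-1, which binds DNA at AP-1 and CRE elements, while phosphatases such as Dusp1 switch the inducing kinases off. In brain tissue these genes respond to neuronal activity, to growth factors and to stress, and they are also known to respond to dissection and tissue handling. The 9 genes described here were taken by name: Fos, Fosb, Jun, Junb, Jund, Egr1, Ier2, Atf3 and Dusp1. All 9 had a row in the deposited table of 17794 genes.

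RNA was sequenced from the medial ganglionic eminence (MGE), the ventral forebrain region where many cortical interneurons are born, of mouse embryos at E13.5. The dmut group was Rac1 fl/fl; Rac3 -/-; Nkx2.1Tg(Cre); R26R-YFP +/-, so Rac3 was absent in every cell and Rac1, which encodes a small GTPase of actin dynamics that also signals to stress-activated kinases, could be deleted only where the Nkx2.1 transgene drives Cre. The control group was Rac1 +/+; Rac3 +/+ and carried the same Cre transgene and YFP reporter. Each group had 3 libraries, and each library was made from MGEs pooled from 3 embryos. The tissue was dissected and not described as sorted, so the libraries may also hold cells outside the Cre lineage.

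Libraries held 26766556 to 30363369 total gene reads in dmut and 31881697 to 34612095 in control. Rac3 checked the labels, with 16, 0 and 0 reads listed in dmut and 728, 647 and 532 in control. Rac1 was at 248 ± 26.0 CPM (reads scaled to library size with TMM factors) in dmut and 272 ± 2.77 CPM in control (SD, n = 3 each), but reads from undeleted exons and from other cells count toward it. MGE markers were present in every library, with Nkx2-1, Lhx6 and the other 10 of the 12 summing to 1988 to 2471 CPM in dmut and 1872 to 2118 CPM in control. Cortical excitatory markers summed to 8.09, 83.7 and 14.1 CPM in dmut replicates 1, 2 and 3 and to 17.2, 43.0 and 51.9 CPM in control, so dmut replicate 2 stood apart. The labels carry a date whose meaning they do not give: replicate 3 of both groups shared one, dmut replicates 1 and 2 shared another with control replicate 2, and control replicate 1 had its own.

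The promoter windows of 4 members are shown: Jund, Jun and Dusp1, the members at the largest read numbers, and Fos, the best known of the family. Each window runs from 250 bases before to 50 bases after the RefSeq transcription start (RefSeq, GRCm38.p6), 5′ to 3′ on the gene's strand. Capitals mark TGACG, the core of the cAMP response element (CRE), the full CRE TGACGTCA, and TGACATCA, a variant AP-1 site that was added to the search after the sequences were seen. The windows lie at chr8:70697489-70697788 (plus strand) for Jund, chr4:95052173-95052472 (minus strand) for Jun, chr17:26508423-26508722 (minus strand) for Dusp1 and chr12:85473640-85473939 (plus strand) for Fos.
Jund: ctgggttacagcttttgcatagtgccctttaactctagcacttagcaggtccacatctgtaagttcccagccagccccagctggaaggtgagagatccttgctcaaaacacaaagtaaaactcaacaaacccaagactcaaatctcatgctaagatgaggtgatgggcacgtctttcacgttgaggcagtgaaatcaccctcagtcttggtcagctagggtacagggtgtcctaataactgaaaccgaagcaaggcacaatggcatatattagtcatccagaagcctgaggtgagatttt
Jun: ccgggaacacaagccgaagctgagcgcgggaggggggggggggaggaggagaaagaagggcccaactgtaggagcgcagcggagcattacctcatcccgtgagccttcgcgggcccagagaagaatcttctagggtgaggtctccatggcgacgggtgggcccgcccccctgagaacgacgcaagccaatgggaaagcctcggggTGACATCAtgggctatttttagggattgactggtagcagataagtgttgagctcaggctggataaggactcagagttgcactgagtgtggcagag
Dusp1: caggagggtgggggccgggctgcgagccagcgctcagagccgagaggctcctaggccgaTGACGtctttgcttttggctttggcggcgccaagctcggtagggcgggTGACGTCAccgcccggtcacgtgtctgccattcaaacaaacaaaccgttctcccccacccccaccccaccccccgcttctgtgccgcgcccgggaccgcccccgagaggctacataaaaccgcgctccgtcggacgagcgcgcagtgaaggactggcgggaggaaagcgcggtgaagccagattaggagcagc
Fos: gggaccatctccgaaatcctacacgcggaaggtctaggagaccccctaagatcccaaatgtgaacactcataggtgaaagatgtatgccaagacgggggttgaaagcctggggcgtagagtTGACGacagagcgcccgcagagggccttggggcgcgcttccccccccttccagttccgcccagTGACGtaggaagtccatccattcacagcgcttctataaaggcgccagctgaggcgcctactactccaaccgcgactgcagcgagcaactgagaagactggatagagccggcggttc

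Promoter windows were at hand for 7 of the 9 members. Searched on both strands, TGACG was found in 5 of these 7 (Fos, Fosb, Junb, Atf3 and Dusp1) and in 20.8% of 32851 mouse promoter windows of the same length. Dusp1 alone of the 7 held the full CRE, which contains TGACG and occurs in 1.79% of windows. TGACATCA was found in Jun alone of the 7, starting 45 bases before the transcription start, and occurs in 3.62% of windows. The AP-1 letters TGACTCA and the CArG box, the binding element of serum response factor, were in none of the 7 windows. They occur in 5.2% and 1.63% of all windows. Bases outside the windows were not searched, so their absence here does not show that the genes lack these elements. Egr1 and Ier2 had no window and were not searched. Fos held TGACG at 129 and 66 bases before its start, and the CRE of Dusp1 lay 143 bases before its start. Jund held none of these letters within its window, so its line has no capitals. These matches are descriptions of the letters and were not tested for use in this tissue.

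The Jun family supplied most of the reads. Jund, an AP-1 subunit that many tissues express without a stimulus (chromosome 8, 70697739 to 70700616), had the highest level of the 9. Its level per length was 60.0, 54.6 and 70.9 RPKM (reads scaled to exon length and library size, as deposited) in dmut and 42.7, 46.0 and 49.6 RPKM in control. All dmut libraries lay above all control libraries. Jund had 5261, 4752 and 5488 total gene reads in dmut and 4141, 4590 and 4563 in control, and after TMM scaling it averaged 191 ± 17.6 CPM in dmut and 124 ± 11.2 CPM in control (SD, n = 3 each). The log2 fold change was 0.63 ± 0.11 (SE, 95% interval 0.37 to 0.88), which did not pass over all genes (edgeR quasi-likelihood test, adjusted p = 0.0653).

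Jun, an AP-1 subunit and a substrate of Jun N-terminal kinases (chromosome 4, 95049034 to 95052222), had the next highest level. It stood at 23.1, 20.3 and 24.2 RPKM in dmut and 16.8, 17.3 and 20.04 RPKM in control. The groups did not overlap, although dmut replicate 2 and control replicate 3 were close. Jun averaged 77.5 ± 4.98 CPM in dmut and 53.9 ± 6.02 CPM in control (SD, n = 3 each), a log2 fold change of 0.52 ± 0.11 (SE, interval 0.27 to 0.78) that did not pass (edgeR adjusted p = 0.0782). In raw reads Jun overlapped between the groups, at 2242, 1959 and 2079 in dmut and 1811, 1916 and 2041 in control, while Jund did not. In RPKM of both genes the lowest dmut library was replicate 2 and the highest control library was replicate 3.

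Part of the reads of these genes also matched elsewhere. Unique gene reads made up 70.4% to 77.0% of the total for Jun and 73.3% to 79.5% for Jund, against 82.6% to 86.6% over all genes. The other 7 members had at most 2 such reads in any library. From unique gene reads alone the log2 fold change was 0.54 for Jun (edgeR adjusted p = 0.0713) and 0.64 for Jund, which then passed (adjusted p = 0.0468). Jun overlaps BC042782 by 689 bases, a gene with 60 to 125 reads per library. Whether strand was used in counting is not given in the sources used here, so reads in that stretch cannot be told apart. On the opposite strand in GENCODE M21, Gm11175 overlaps Jund by 919 bases and Gm24748 overlaps Atf3 by 108 bases. Neither is among the deposited genes, so their reads are not known. In GENCODE M21, genes on the opposite strand also overlap Dusp1 (Ergic1 by 640 bases, with 3636 to 4834 reads per library, and Gm8225 by 956 bases, with 0 to 14 reads) and Junb (Prdx2 by 351 bases, with 21259 to 29577 reads), though their deposited spans do not overlap.

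Junb, an AP-1 subunit that often counteracts Jun, was far less abundant. It was at 2.20, 1.19 and 1.52 RPKM in dmut and 1.61, 1.36 and 1.02 RPKM in control. The groups overlapped, with the highest and next-to-lowest values both in dmut. Its log2 fold change was 0.51 ± 0.32 (SE, interval -0.24 to 1.26) and did not pass (edgeR adjusted p = 0.424).

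**Figure D1:**
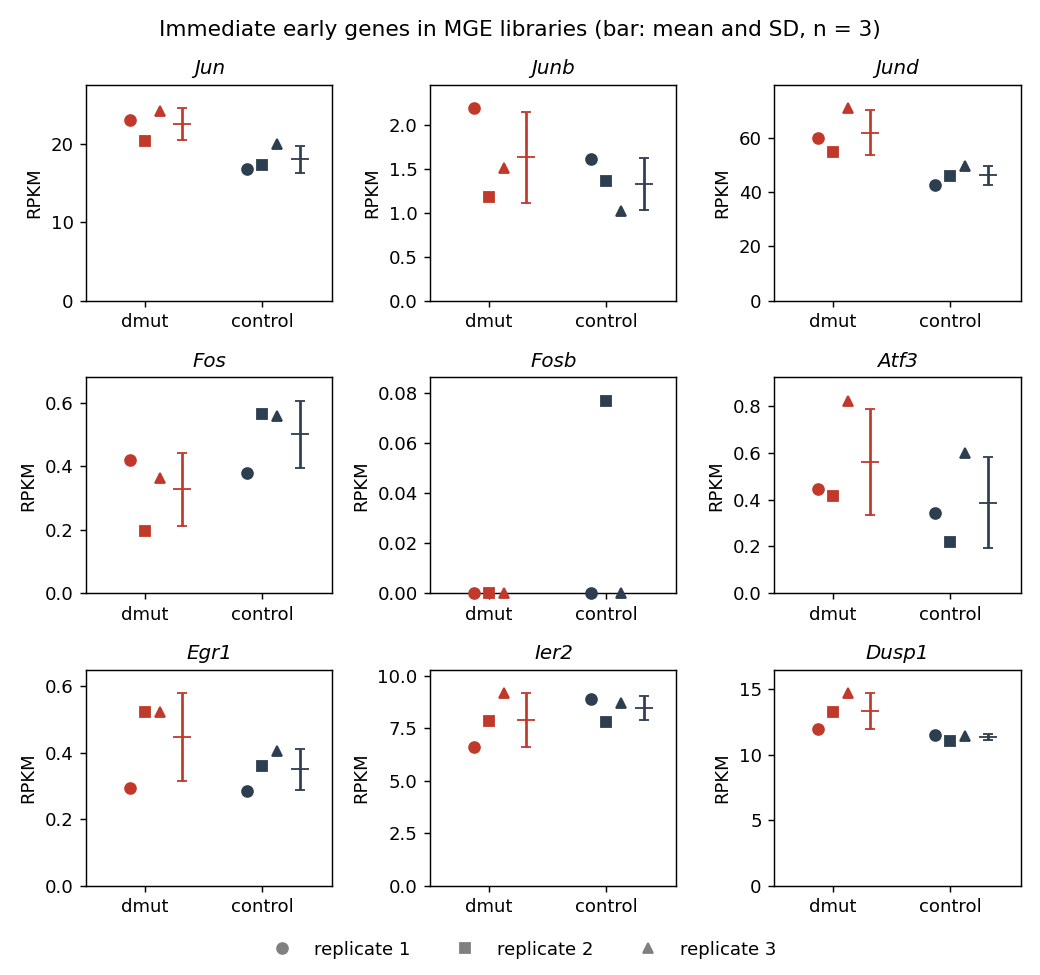
RPKM of the 9 immediate early genes in each of 3 dmut (red) and 3 control (dark) libraries, with the mean and SD beside the points (none for Fosb, listed at 0 in 5 libraries); each panel has its own axis from 0. The dmut points lie above all control points for Jun, Jund and Dusp1, and the groups overlap for the other members.

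Fos and Fosb were at low read numbers in both groups. The table listed no total gene read count from 1 to 9, so a listed 0 stands for at most 9 reads, and 10 reads corresponded to 0.363 to 0.382 CPM in dmut and 0.267 to 0.298 CPM in control. Fos, the inducible AP-1 subunit most used as a marker of neuronal activity (chromosome 12, 85473890 to 85477273), had 30, 14 and 26 reads in dmut and 30, 49 and 44 in control. Dmut replicate 1 equalled control replicate 1 in reads, and the groups overlapped. Fos was at 0.864 ± 0.308 CPM in dmut and 1.15 ± 0.281 CPM in control, a log2 fold change of -0.41 ± 0.55 (SE, interval -1.69 to 0.87) that did not pass (edgeR adjusted p = 0.733).

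Fosb, whose product pairs with Jun proteins in the same way (chromosome 7, 19302696 to 19310051 in GENCODE M21), was listed at 0 in all dmut libraries and in control replicates 1 and 3, and had 20 reads in control replicate 2. It did not reach the expression filter and was not tested. A difference in Fosb was not detectable at this depth.

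Atf3 encodes a stress-induced factor of the CREB family that can pair with Jun (chromosome 1, 191170296 to 191183340). It had 29, 25 and 47 reads in dmut and 26, 15 and 41 in control. Replicate 3 was the highest library of both groups, and the groups overlapped. Its log2 fold change of 0.69 ± 0.62 (SE, interval -0.76 to 2.14) was the largest of the 8 tested members and also the least precise, and it did not pass (edgeR adjusted p = 0.589).

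Egr1 encodes a zinc-finger factor induced through serum response factor (chromosome 18, 34859823 to 34864984). It had 40, 71 and 63 reads in dmut and 43, 57 and 59 in control. The groups overlapped, with the lowest library in dmut by reads and in control by CPM (1.45, 2.60 and 2.40 CPM in dmut and 1.18, 1.52 and 1.76 CPM in control), and the log2 fold change was 0.53 ± 0.36 (SE, interval -0.32 to 1.39, edgeR adjusted p = 0.463). Ier2, an immediate early gene whose product is a nuclear protein (chromosome 8, 84661331 to 84662852), was moderately expressed, at 6.63, 7.85 and 9.19 RPKM in dmut and 8.90, 7.81 and 8.70 RPKM in control. The groups overlapped and the log2 fold change was 0.10 ± 0.14 (SE, interval -0.23 to 0.43, edgeR adjusted p = 0.751). Its sign turned with library size alone (-0.10).

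Dusp1 encodes a phosphatase that removes phosphate from p38, Jun N-terminal and ERK kinases and is itself induced by them (chromosome 17, 26505590 to 26508519). It stood at 11.97, 13.3 and 14.7 RPKM in dmut and 11.5, 11.1 and 11.4 RPKM in control. The control libraries were close together and all lay below the dmut libraries. Dusp1 averaged 38.9 ± 2.59 CPM in dmut and 28.8 ± 0.805 CPM in control (SD, n = 3 each), a log2 fold change of 0.43 ± 0.10 (SE, interval 0.21 to 0.66) that did not pass (edgeR adjusted p = 0.0826). In raw reads the groups overlapped, at 992, 1088 and 1071 in dmut and 1055, 1046 and 993 in control, so the separation in CPM depends on scaling by library.

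**Figure D2:**
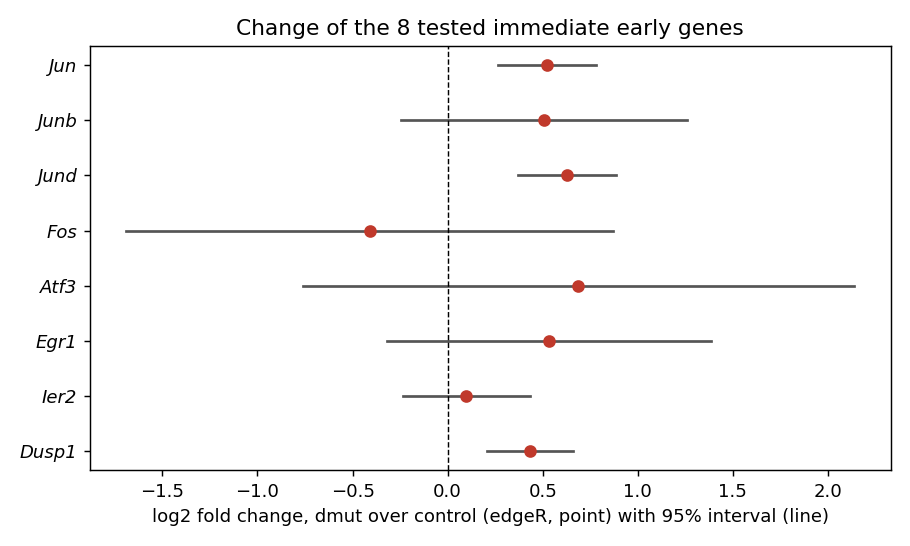
Log2 fold change of dmut over control for the 8 tested immediate early genes, with points for the edgeR estimate and lines for its 95% interval. The intervals of Jun, Jund and Dusp1 lie above 0, and those of Atf3 (-0.76 to 2.14) and Fos (-1.69 to 0.87) are the widest.

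Per length, the order of levels was nearly the same in both groups. In dmut, mean RPKM ran from 61.9 for Jund through 22.6 for Jun, 13.3 for Dusp1, 7.89 for Ier2 and 1.63 for Junb to 0.563 for Atf3, 0.447 for Egr1 and 0.327 for Fos. In control it ran from 46.1 for Jund through 18.1 for Jun, 11.3 for Dusp1, 8.47 for Ier2 and 1.33 for Junb to 0.500 for Fos, 0.387 for Atf3 and 0.350 for Egr1. Down to Junb, no library of a gene overlapped the next gene in the order, whereas Atf3, Egr1 and Fos overlapped one another in both groups. Among all genes tested, mean RPKM of Jund stood at the 95.2 percentile in dmut and 93.7 in control, and that of Fos at 17.7 in dmut and 19.4 in control.

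Over the members, 0 passed the edgeR test, beside 0.482% of the 15960 genes tested. At an unadjusted p under 0.05, 3 were higher (Jund, Jun and Dusp1) and 0 lower, beside 11.1% of genes tested that were higher and 10.1% that were lower. In CPM the same 3 had groups that did not overlap, beside 13.6% of genes tested with all dmut libraries higher. In deposited RPKM, which is not TMM-scaled, the same 3 again did not overlap, beside 4.9% of genes tested. The median log2 fold change of the 8 tested members was 0.52, against -0.02 over all genes tested. Library size alone moved the median of all genes to -0.23 and that of the members to 0.31. DESeq2 called 3 members (Jund, Jun and Dusp1) as higher, beside 5.76% of its 17404 genes, and limma-voom called 1 (Jund), beside 0.288% of genes. The authors' deposited table gives Jund a fold of 1.497 with an adjusted p of 0.375 and the other 8 members an adjusted p of 1.

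The calls on Jund, Jun and Dusp1 moved with the processing. Jund passed in 7 of 21 alternatives, with adjusted p from 7.80e-06 to 0.364 and log2 fold changes from 0.37 to 0.70. Among them were edgeR without dmut replicate 2 (0.69, adjusted p = 0.0408) and with at least 10 reads in every library (0.63, adjusted p = 0.0358). Jun passed in 2 of 21 alternatives (adjusted p from 0.00109 to 0.364) and Dusp1 in 1 of 21 (0.00147 to 0.364). All 3 folds stayed positive in each of the 21. With the date as a block the log2 fold changes were 0.59 for Jund, 0.50 for Jun and 0.45 for Dusp1, each at an edgeR adjusted p of 0.364. With log2(RPKM + 1), which put the median of all genes at -0.10, the limma log2 fold changes were 0.41 for Jund, 0.31 for Jun and 0.21 for Dusp1. Correcting every library for exon length and base composition left 0.37 for Jund (edgeR adjusted p = 0.179), 0.52 for Jun (0.0843) and 0.45 for Dusp1 (0.0836).

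**Figure D3:**
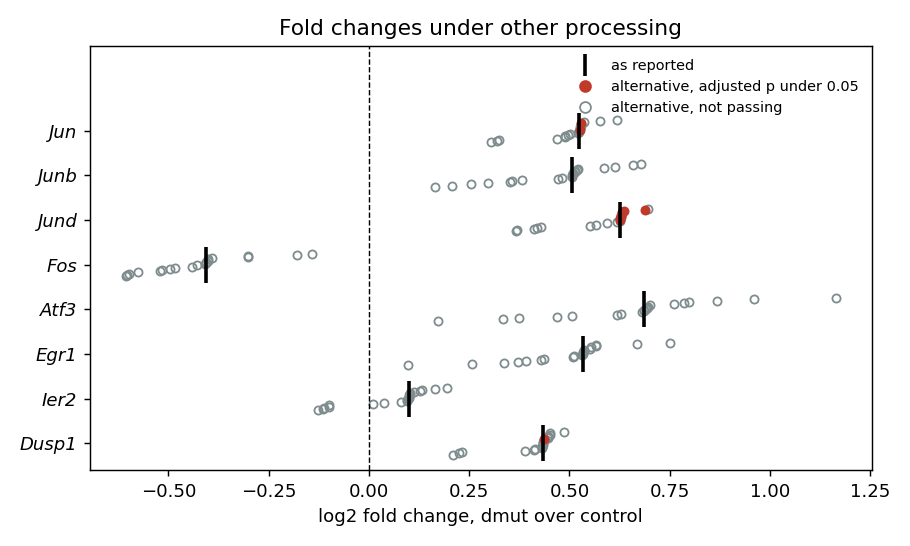
Log2 fold change of dmut over control for each tested member, as reported (black bars) and under each alternative (circles, filled where the adjusted p was under 0.05). Filled circles occur for Jund (7), Jun (2) and Dusp1 (1), and only the circles of Ier2 lie on both sides of 0.

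Other quantities also differed between the groups, but within dmut their order of libraries was not that of the members. The 9 members summed to 327, 306 and 352 CPM in dmut and 210, 219 and 245 CPM in control. Most of this sum came from Jund, Jun and Dusp1, which averaged 191, 77.5 and 38.9 CPM in dmut and 124, 53.9 and 28.8 CPM in control. A sum thus describes mainly the most abundant genes of its list. The 19 dissociation and heat stress genes summed to 11668, 10457 and 10302 CPM in dmut and 6744, 7547 and 7958 CPM in control, also without overlap. Of these 19, Hspa8, a constitutive chaperone, rose (log2 0.99 ± 0.14 SE, edgeR adjusted p = 0.0430), 10 had all dmut libraries higher in CPM and 0 all lower, beside 13.6% and 14.9% of genes tested, and the median was 0.39, or 0.18 with library size alone. Most Hspa8 reads matched more than 1 place; its unique reads numbered 19827, 17263 and 15624 in dmut and 6913, 11195 and 9728 in control, again without overlap. The edgeR call on Hspa8 was lost on leaving out any control library, dmut replicate 1 or dmut replicate 3, with the label date as a block, with the replicate block and length and GC trend removed, and in limma on RPKM, and 2 genes of the list were called without dmut replicate 2. The heat-inducible Hspa1a had 0, 14 and 11 reads in dmut and 0, 13 and 30 in control, and Hspa1b stood at 2.14 CPM in dmut and 1.16 CPM in control. Hspa1a and Hspa1b were picked after their values were seen and do not stand for the list. Of its 19 genes, 15 had a positive log2 fold change, beside 47.3% of all genes tested.

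All 9 microglial markers used here, genes of the brain's resident macrophages, had a positive log2 fold change, beside 47.3% of all genes tested. C1qa and C1qc, which encode complement subunits, were the 2 whose groups did not overlap. Over all genes tested, 13.6% had all dmut libraries higher. None of the 9 was at 0 in all libraries. They summed to 112, 125 and 93.3 CPM in dmut and 89.3, 74.1 and 89.7 CPM in control. Endothelial markers summed to 157 to 195 CPM in dmut and 150 to 168 CPM in control. All 8 endothelial markers also had a positive log2 fold change, at a median of 0.24. The other marker lists were mixed. Positive were 8 of 12 tested MGE, 5 of 8 cortical excitatory and 2 of 3 choroid plexus markers. So were 3 of 8 erythroid and 2 of 8 pericyte and mesenchyme markers, at medians of -0.23 and -0.49. Genes also differed by length: the median log2 fold change was 0.91 for exon lengths up to 500 bases, 0.39 for 500 to 1000, 0.21 for 1000 to 2000, 0.08 for 2000 to 3000, 0.00 for 3000 to 5000, -0.09 for 5000 to 10000 and -0.15 above 10000. The part of handling, microglia or depth in the values of Jund, Jun and Dusp1 was not tested. In bulk tissue, more cells of a type and more RNA per cell cannot be told apart.

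**Figure D4:**
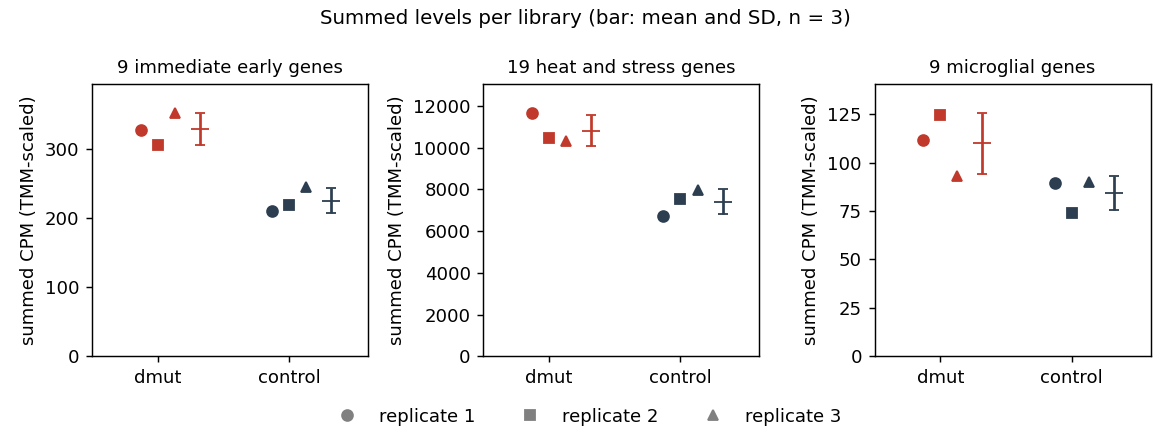
Summed TMM-scaled CPM per library for the 9 immediate early genes, the 19 dissociation and heat stress genes and 9 microglial markers, in 3 dmut (red) and 3 control (dark) libraries, with the mean and SD. In each panel all dmut points lie above all control points, by the smallest margin for microglial markers (93.3 against 89.7 CPM). Each sum describes mainly the most abundant genes of its list.

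The wider programme of immediate early transcription factors did not share the positive median. Of 19 tested, 0 passed the edgeR test, beside 0.482% of all genes tested. At an unadjusted p under 0.05, 1 was higher and 2 were lower, beside 11.1% and 10.1% of all genes tested. The median log2 fold change was -0.10, whether or not Npas4 was set at its bound. Npas4, a factor induced in neurons by calcium entry, was listed at 0 in all dmut libraries and had 112, 39 and 42 reads in control. With each listed 0 counted as 9 reads it was at least 5.36-fold lower in dmut, or at least 3.44-fold without control replicate 1, which had the most reads. In the edgeR fit, which took each listed 0 as 0 reads, Npas4 did not pass (adjusted p = 0.0653). That p does not belong to the bounded fold. Nfil3, a bZIP factor, had 1230, 825 and 945 reads in dmut and 939, 834 and 877 in control, overlapping in reads but not in CPM, where it averaged 37.0 ± 7.22 in dmut and 24.7 ± 2.10 in control (log2 0.58 ± 0.16 SE, edgeR adjusted p = 0.101).

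Among 26 immediate early effector genes 0 passed, beside 0.482% of all genes tested, and the median was 0.02, or -0.19 with library size alone. At an unadjusted edgeR p under 0.05, 3 were higher, beside 11.1% of all genes tested. Nfkbia, which encodes the inhibitor that holds NF-kappaB in the cytoplasm, averaged 16.6 ± 1.21 CPM in dmut and 10.4 ± 1.44 CPM in control, without overlap (log2 0.67 ± 0.15 SE, edgeR adjusted p = 0.0806). Nptx2, a secreted pentraxin of synapses, averaged 7.72 ± 0.285 CPM in dmut and 4.94 ± 0.832 CPM in control (log2 0.64 ± 0.18 SE, adjusted p = 0.109). Of 15 other dual-specificity phosphatases and feedback inhibitors, the class to which Dusp1 belongs, 0 passed and the median was -0.02. The smallest p-values there belonged to Dusp8 (log2 0.43, edgeR adjusted p = 0.184) and Dusp10 (0.29, adjusted p = 0.354).

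Genes upstream of the members are set beside all genes tested, of which 0.482% passed. At an unadjusted edgeR p under 0.05, 11.1% of all genes tested were higher and 10.1% lower. Of 18 tested upstream transcription factors 0 passed, 1 was higher and 4 were lower at an unadjusted p under 0.05, and the median was -0.07. Mef2a, an activity-regulated factor, stood at 45.7 ± 2.32 CPM in dmut and 59.0 ± 3.13 CPM in control (log2 -0.37 ± 0.09 SE, edgeR adjusted p = 0.0926), and Crtc2, a coactivator of CREB, at 9.36 ± 1.02 CPM in dmut and 14.3 ± 2.99 CPM in control (-0.61 ± 0.18 SE, adjusted p = 0.121). Of 31 MAP kinase pathway genes 0 passed, 1 was higher and 4 were lower at an unadjusted p under 0.05, and the median was -0.08. Map2k2, a kinase that activates ERK, was at 140 ± 8.25 CPM in dmut and 102 ± 10.7 CPM in control (log2 0.46 ± 0.11 SE, edgeR adjusted p = 0.0847). Map3k7, which acts upstream of Jun N-terminal and p38 kinases, was at 110 ± 8.67 CPM in dmut and 139 ± 3.38 CPM in control (-0.34 ± 0.09 SE, adjusted p = 0.0996).

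Of 14 other bZIP partners described here 1 rose and 0 fell, beside 0.163% and 0.32% of all genes tested. Maf, a large Maf factor also known in MGE-derived interneurons, stood at 42.8 ± 9.72 CPM in dmut and 13.2 ± 1.75 CPM in control (log2 1.69 ± 0.19 SE, edgeR adjusted p = 0.0318). Part of the Maf reads matched elsewhere, and its unique reads numbered 1086, 664 and 817 in dmut and 425, 369 and 298 in control, without overlap. Maf no longer passed in edgeR without control replicate 1, 2 or 3 (adjusted p = 0.201, 0.223 and 0.190) or without dmut replicate 3 (0.0672), at log2 fold changes of 1.59 to 1.78. It also did not pass with the label date as a block (0.364), with the replicate block and the length and GC trend removed (0.0543) or in limma on log2(RPKM + 1) (0.0537). The median of the 14 was 0.14, and -0.06 with library size alone.

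Over the 6 libraries, the profile of the 8 tested members (the mean of their standardised log2 CPM) was lowest in control replicate 2 and highest in dmut replicate 3. Among 9299 other genes at 10 CPM or more, those most like it were Zswim4, Safb and Cdkn2aipnl, with Pearson correlations of 0.994, 0.992 and 0.992. These are descriptions over 6 libraries that share the 2 genotypes, and 248 of the 9299 genes exceeded 0.9.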

How the data were processed

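RNA was measured in 3 dmut and 3 control libraries of E13.5 mouse MGE. Per the labels' protocols, total RNA was column-purified, mRNA was isolated on beads and a total RNA-seq kit for Ion sequencing was used. The submitters' processing notes name the build GRCm38 (mm10). Which aligner and counter were used is not given in the sources used here. The authors deposited, per the file headers, total and unique gene reads as whole-number counts, RPKM, a quantile-normalised signal (not used here), group means, and p-values with signed fold changes. The RPKM deposited by the authors for Jun corresponded to its total gene reads over 3195 to 3212 bases, against a deposited span of 3189. Deposited starts count from 0 and are given here counted from 1.

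Total gene reads were tested in edgeR 4.0.16 under R 4.3.3 (TMM scaling, genes kept by filterByExpr) by a two-sided quasi-likelihood test with Benjamini-Hochberg adjustment over 15960 genes at 0.05, without covariates. The fit was also run on simulated counts with the same dispersion for every gene, which does not measure its error in these libraries. Alternatives used limma 3.58.1, DESeq2 1.42.0, other scalings, filters, read classes, blocks and libraries left out. GENCODE M21 names matched 93.49% of genes. Named genes were all 9 members, Rac1 and Rac3, of each list the called genes (up to 4) or else the 2 of smallest p, and the 3 genes most like the members. Hspa1a, Hspa1b, C1qa, C1qc, Nr4a1, Nr4a2, Nr4a3, Egr3, Arc and Homer1 were chosen after their values were seen. Some genes of the lists are not reported here. The members, lists and tests were chosen with earlier results of these data known. No pair of libraries differed as little as counting noise (chi-square over its degrees of freedom, 28.4 to 197), which bears only on whether a library was deposited more than once. The labels call the pools biological replicates, and p-values measure the spread between them.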

Additional observations from a re-analysis of the deposited data

How the results depend on the processing

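The alternatives moved the number of calls more than the folds. Against 77 genes and 0 members as reported, edgeR called 780 genes with library size alone, 135 genes and 1 member with a mean of at least 50 reads, 401 genes and 2 members with at least 10 reads in every library, 27 genes with the length and GC trend removed, and 0 (2033 at an unadjusted p under 0.05) with the label date as a block, where control replicate 1 no longer contributes to the comparison. DESeq2 called 1783 genes and 3 members, limma-voom 127 genes and 1 member, limma on log2(RPKM + 1) 49 genes, unique gene reads 90 genes and 1 member, and an adjusted p of 0.1 called 1065 genes and 3 members. Leaving out 1 library gave 2 to 585 genes and 0 to 1 members, with 585 genes (399 higher) and 1 member without dmut replicate 2, and 22 and 12 genes without dmut replicates 1 and 3, and 2, 2 and 4 genes without control replicates 1, 2 and 3. Of the called genes, 26 of 77 were higher as reported, 52 of 780 with library size alone, 1002 of 1783 with DESeq2 and 141 of 227 with the replicate block. Ier2 turned negative with library size alone (-0.10), with log2(RPKM + 1) (-0.10) or log2(RPKM + 0.1) (-0.11), and with the length and GC trend removed (-0.12). The cause of these changes was not tested.

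With the replicate number as a replicate block, 227 genes and 1 member (Jund, 0.63) were called, and with the replicate block and the length and GC trend removed, 9 genes and 0 members, with Ier2 at -0.13. Deviations of same-numbered libraries correlated at 0.099, 0.102 and 0.017, above those of differently numbered libraries, at -0.114 to 0.013. These correlations do not settle whether the numbers pair the samples. The labels state no pairing, so the reported fit used no replicate block. Depth limits Fos, Fosb, Egr1 and Atf3, with at most 71 reads in any library.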

Other observations

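Of the other immediate early transcription factors, Nr4a1 and Egr3 were picked after their values were seen, and neither passed. Nr4a1, an orphan nuclear receptor induced by depolarisation, had 47, 33 and 68 reads in dmut and 143, 141 and 105 in control. All dmut libraries lay below all control libraries, as they did for 14.9% of genes tested, and the log2 fold change was -0.97 ± 0.33 (SE, edgeR adjusted p = 0.151). In RPKM Nr4a1 was at 0.611, 0.375 and 0.977 in dmut and 1.38, 1.33 and 1.19 in control. Egr3, a relative of Egr1, had 0, 17 and 10 reads in dmut and 32, 40 and 0 in control, so its groups overlapped (log2 -0.95 ± 1.67 SE, edgeR adjusted p = 0.80). Of the relatives of Nr4a1, Nr4a2 had a log2 fold change of -0.44 (edgeR adjusted p = 0.359) and Nr4a3 of -0.05. The groups of Nr4a2 overlapped in CPM, while in RPKM all its dmut libraries were lower, as for 26.4% of genes tested. Among activity-related genes Arc was at -0.01 and Homer1 at 0.04.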
